A study of Mus musculus with 6 samples.

Results

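Solute carrier (SLC) transporters were followed in RAW264.7 cells, an immortalised line of mouse macrophages. The cytokine RANKL drives this line towards osteoclasts, the cells that resorb bone. The members were chosen by symbol and level: protein-coding genes of the mouse annotation GENCODE M21 whose symbol starts with Slc and a digit and whose mean over the 6 libraries was at least 1 FPKM (fragments scaled by exon length and library size). Of 371 such symbols, 201 lay below that mean and 6 were left out by name (Slc4a2, Slc9b2, Slc7a11, Slc40a1, Slc11a1 and Slc11a2), which left 164 members of the 55536 gene IDs in the tables. Both treated and control cells received RANKL at 50 ng/mL, and treated cells were also given etelcalcetide at 4 µM, a calcimimetic peptide that acts on the calcium-sensing receptor. Each group had 3 libraries, and no library without RANKL was analysed here. The series design states an exposure of 5 days, whereas the labels of the samples put replicate 1 of each group at 5 days, replicate 2 at 6 days and replicate 3 at 7 days. RAW264.7 is a tumour-derived line, and the labels do not state whether replicates came from separate cultures. The p-values therefore reflect the spread among these libraries alone, and that spread may be technical. By the labels it also includes any difference between days, for which the main fit has no term.

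Solute carriers are membrane proteins that move small molecules such as sugars, amino acids, metal ions, nucleotide precursors and organic acids, either down their gradients or by coupling to sodium, protons or a second solute. Numbered families group carriers by protein sequence, and members of 1 family can differ in cargo and can sit in the plasma membrane, lysosomes, the Golgi or mitochondria. Osteoclasts depend on carriers for acid and bicarbonate handling, for phosphate and calcium released from bone and for fuel supply to many mitochondria.

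The libraries held 13742913 to 16264432 gene-assigned reads, recovered from the deposited values. The labelled cell type was checked against marker lists. All 6 macrophage markers were tested, 3 were higher with etelcalcetide and 0 lower by limma with Benjamini-Hochberg adjustment, and their summed level was 2697 to 2860 FPKM with RANKL and 3123 to 3302 FPKM with etelcalcetide. Of 7 osteoclast markers 6 were tested, 0 were higher and 4 were lower (Acp5, Ctsk, Oscar and Atp6v0d2), and the list summed to 342 to 474 FPKM with RANKL and to 179 to 195 FPKM with etelcalcetide. Mmp9 (mean 158 FPKM with RANKL and 163 FPKM with etelcalcetide, log2 fold change -0.03) and Dcstamp (20.7 and 21.7 FPKM, -0.001) did not pass. Mmp9 made up most of the treated sum. Oscar had 310 reads over the RANKL libraries and 0 over the etelcalcetide libraries, and Calcr, with 8 and 0 reads, was not tested. The 12 lymphocyte, fibroblast, epithelial and endothelial markers were too low to test, 6 of them had 0 reads in all libraries, and they summed to 0.496 to 0.766 FPKM with RANKL and 0.0435 to 0.114 FPKM with etelcalcetide. These shifts in marker levels ran alongside every member result below, and their part in those results was not tested. In bulk RNA, fewer cells of a type and less RNA per cell cannot be told apart.

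All 164 members passed the filter for testing, and etelcalcetide was followed by changes in both directions. By limma with Benjamini-Hochberg adjustment over 11120 genes, 54 members (32.9%) rose and 44 (26.8%) fell at adjusted p under 0.05, and 66 did not pass. Among all tested genes 26% rose and 27% fell, and 53.0% passed in either direction. The median member log2 fold change was 0.07, against -0.01 over all tested genes. Most called changes were small, since 59 called members moved by less than 1.5-fold. At least 2-fold, 6 members rose (3.66%, against 4.10% of all tested genes) and 8 fell (4.88%, against 2.92%). The split depends on scaling: with library totals alone, 69 members rose and 29 fell, where 32% and 20.4% of all tested genes did. In all, 6 members (Slc6a4, Slc6a8, Slc16a7, Slc38a9, Slc46a1 and Slc46a3) had a mean under 1 FPKM in 1 group, so that the choice by mean level leaned on the other group. Among the 158 members with at least 1 FPKM in each group, 52 rose and 41 fell.

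**Figure D1:**
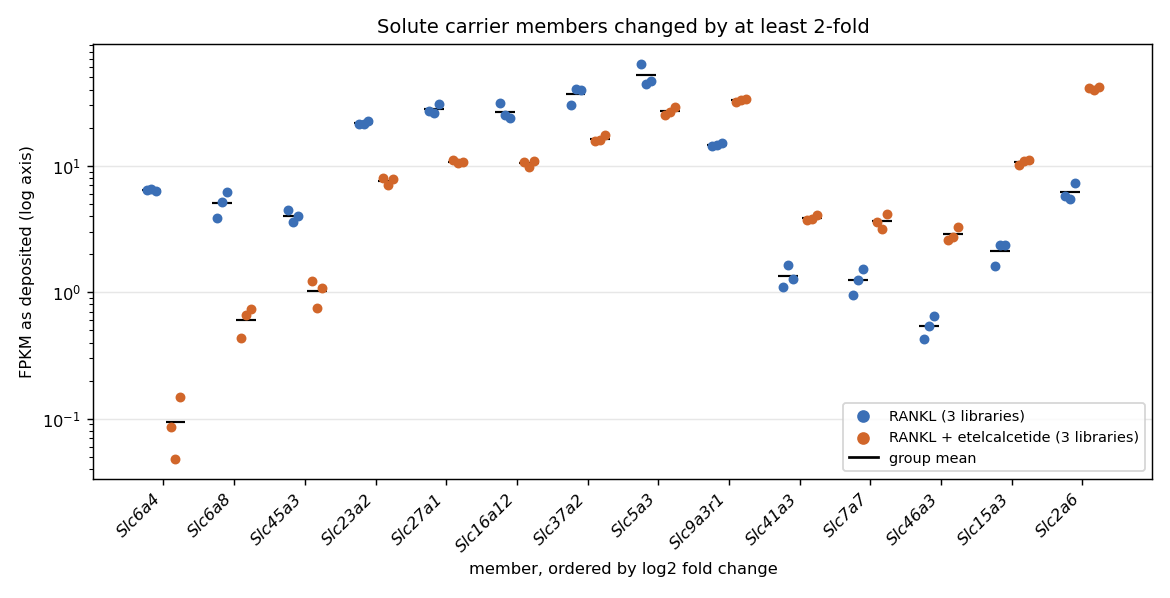
Deposited FPKM (log axis) of the members called with at least a 2-fold change, ordered by log2 fold change, with 1 point per library (3 RANKL, 3 RANKL + etelcalcetide) and a line at each group mean. In each of these genes the 3 etelcalcetide libraries lie on 1 side of the 3 RANKL libraries, for example 39.8 to 41.95 FPKM against 5.47 to 7.31 FPKM for Slc2a6. The choice of called genes with large changes favours such separation, and of all 98 called members 5 overlapped.

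The member with the largest fall was Slc6a4, the plasma-membrane serotonin transporter (chr11:76998603-77032340, plus strand, GRCm38). Its level was 6.48, 6.55 and 6.27 FPKM in RANKL replicates 1, 2 and 3 and 0.0858, 0.0482 and 0.149 FPKM in etelcalcetide replicates 1, 2 and 3. All RANKL libraries were high and all treated libraries close to 0, with 1332 reads over the former and 20 over the latter. The log2 fold change was -5.16 (SE 0.195, adjusted p = 2.35e-07 by limma), a 35.8-fold lower level on the log2(FPKM + 0.1) scale, which understates changes of low genes. Slc6a4 was the only member with a mean of at least 1 FPKM in 1 group and under 0.5 FPKM in the other. It passed the member threshold and the filter for testing through its RANKL libraries alone, so its choice leaned on the group where it is high.

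The largest rise was that of Slc2a6, which encodes GLUT6, a facilitative hexose transporter family member found on intracellular membranes (chr2:27021363-27027998, minus strand). It measured 5.71, 5.47 and 7.31 FPKM with RANKL and 40.9, 39.8 and 41.95 FPKM with etelcalcetide. The groups were far apart and the treated libraries close together, with a log2 fold change of 2.64 (SE 0.0982, adjusted p = 2.17e-07 by limma), or 6.25-fold. Slc46a3, a lysosomal carrier of the folate transporter family (chr5:147878437-147894815, minus strand), had 0.427, 0.538 and 0.644 FPKM with RANKL and 2.61, 2.75 and 3.30 FPKM with etelcalcetide. It was low in every RANKL library and rose by 2.17 on the log2 scale (adjusted p = 1.46e-05 by limma). Slc45a3 (chr1:131962967-131982969, plus strand), a proton-coupled sugar carrier of the SLC45 family, moved the other way, with 4.43, 3.62 and 3.98 FPKM with RANKL and 1.24, 0.756 and 1.09 FPKM with etelcalcetide. Its groups did not overlap, and the log2 fold change was -1.96 (adjusted p = 2.60e-05 by limma). In Slc45a3, 13.5% of the exon length is shared with another gene, and the sources used here do not state strandedness. The same limit applies to other called members named below, with 30.2% shared in Slc6a9, 23.5% in Slc16a6, 13.1% in Slc20a1, 28.1% in Slc15a3, 12.8% in Slc10a3 and under 10% in the rest.

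The 250 bases before the start site of these members, which had among the largest changes in each direction, are shown from RefSeq on GRCm38.p6, read 5′ to 3′ on the strand of the gene. RefSeq start sites need not be those of GENCODE. The windows are chr11:76998347-76998596 (plus strand) for Slc6a4, chr2:27027999-27028248 (minus strand) for Slc2a6, chr5:147894816-147895065 (minus strand) for Slc46a3 and chr1:131962665-131962914 (plus strand) for Slc45a3. Capitals mark the only match to a searched motif in these windows, the NFAT core TGGAAA on the opposite strand of Slc45a3, which begins at position -98.
Slc6a4: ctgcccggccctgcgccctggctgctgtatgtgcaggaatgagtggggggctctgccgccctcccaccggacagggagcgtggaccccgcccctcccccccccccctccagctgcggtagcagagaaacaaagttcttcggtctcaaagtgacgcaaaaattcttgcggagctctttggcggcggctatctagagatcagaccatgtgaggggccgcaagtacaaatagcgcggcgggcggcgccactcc
Slc2a6: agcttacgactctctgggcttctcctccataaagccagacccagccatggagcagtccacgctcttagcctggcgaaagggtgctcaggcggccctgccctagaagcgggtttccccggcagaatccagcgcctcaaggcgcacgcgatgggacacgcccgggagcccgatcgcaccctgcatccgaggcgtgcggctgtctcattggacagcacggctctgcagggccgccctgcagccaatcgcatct
Slc46a3: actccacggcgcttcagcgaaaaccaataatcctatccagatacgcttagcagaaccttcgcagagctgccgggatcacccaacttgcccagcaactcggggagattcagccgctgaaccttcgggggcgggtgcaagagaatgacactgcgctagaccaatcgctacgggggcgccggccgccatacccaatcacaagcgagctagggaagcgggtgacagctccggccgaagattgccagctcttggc
Slc45a3: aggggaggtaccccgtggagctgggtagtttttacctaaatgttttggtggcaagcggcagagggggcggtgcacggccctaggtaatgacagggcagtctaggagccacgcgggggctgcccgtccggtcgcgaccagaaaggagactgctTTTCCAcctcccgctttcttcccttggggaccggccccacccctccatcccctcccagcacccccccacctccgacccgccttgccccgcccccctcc

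Promoter windows were available for 127 of the 164 members, 45 of which had risen and 34 fallen, and 6 motifs were searched on both strands, with overlaps between motifs counted for each. The E-box CACGTG was present in 17 member windows (13.4%), against 6.02% of all 32851 RefSeq windows, and in 5 windows of members that rose, 4 of members that fell and 8 of members not called. The AP-1 letters TGANTCA were in 8 (6.30%, against 6.75%), 4 of them in members that fell, among these Slc37a2, Slc2a9 and Slc7a1. The ATF4 and C/EBP letters TGATGNAA were in 2 (1.57%, against 3.45%), Slc7a7 and Slc50a1, which both rose. NFAT letters TGGAAA were in 14 (11.0%, against 18.6%), and an interferon-response motif, 2 copies of GAAA with 2 bases between them, in 2 (1.57%, against 2.98%). The kappa-B motif was in 6 (4.72%, against 3.90%): 4 members that rose (Slc7a7, Slc35b2, Slc43a2 and Slc25a10), 0 that fell and 2 not called. Member windows were not matched to the other windows for base composition, and a match is a description of letters, not a binding site.

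**Figure D2:**
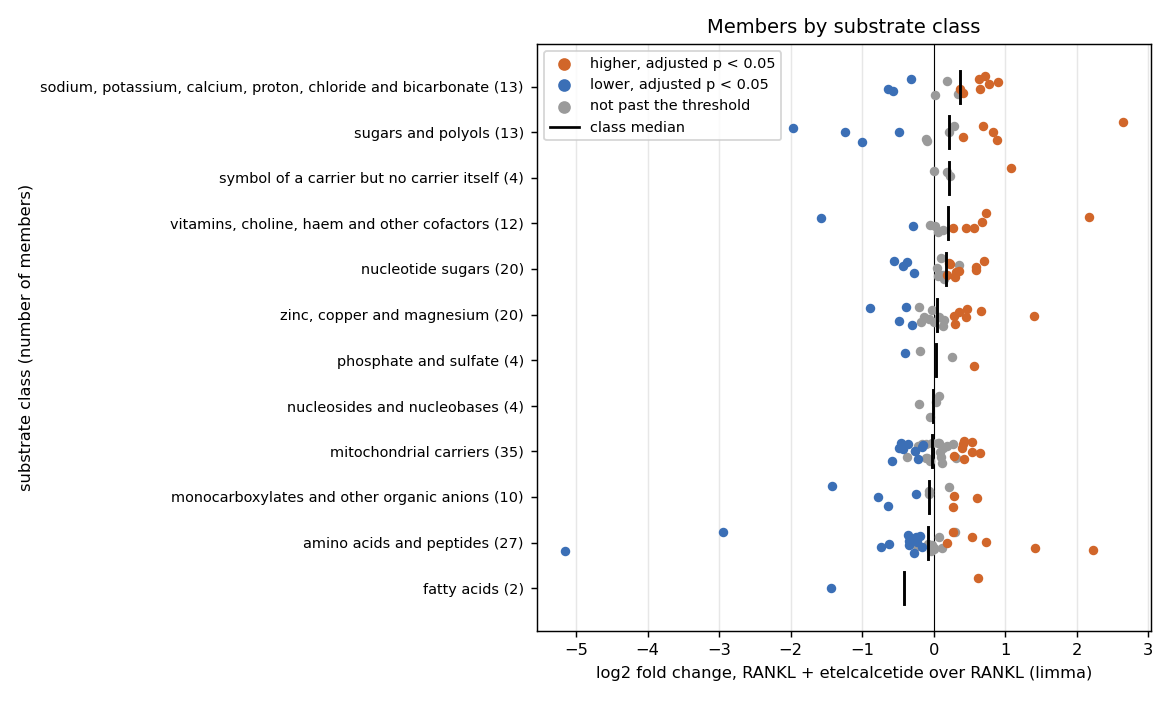
Log2 fold change of every member (RANKL + etelcalcetide minus RANKL) by substrate class, with points coloured by the limma call and a line at each class median. Classes hold 2 to 35 members, and most have called members on both sides of 0, with the largest values at -5.16 (Slc6a4) and 2.64 (Slc2a6).

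Among the 27 carriers placed with amino acids and peptides, by family number except for the aromatic amino acid carrier Slc16a10, 6 rose, 12 fell and 9 did not pass, and the median log2 fold change was -0.08. Of the 6 members of the SLC6 family, which couple transport to sodium and chloride, 0 rose and 5 fell. Among all tested genes 26% rose and 27% fell. The family counts were the same by limma voom and at an unadjusted p under 0.05. This family was singled out after its values were seen, and its counts were not tested against those of other families. The falls of Slc6a13 (log2 fold change -0.36), Slc6a9 (-0.35) and Slc6a12 (-0.28) were small. Slc6a13 and Slc6a9 were chosen after their values were seen. Slc6a9 lost its call without any library but etelcalcetide replicate 1 (adjusted p = 0.0669 to 0.152 by limma). The second largest fall in the class was that of Slc6a8, the creatine transporter (chrX:73673150-73682502, plus strand), at 3.86, 5.20 and 6.24 FPKM with RANKL and 0.436, 0.656 and 0.732 FPKM with etelcalcetide. The RANKL libraries were spread, yet the lowest of them lay well above the highest treated library (log2 fold change -2.95, SE 0.213, adjusted p = 9.35e-06 by limma). Slc6a4 and Slc6a8 carry serotonin and creatine, which are no protein amino acids, and they sit in this class by their family number alone. Slc43a3 and Slc6a12, described below, are likewise placed by family number. The 12 falls are therefore not all falls of carriers of protein amino acids.

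Slc43a3, a relative of amino acid carriers that is known for purine nucleobase uptake, fell from 8.65, 7.87 and 8.39 FPKM to 5.87, 5.33 and 5.76 FPKM (log2 fold change -0.63). Slc1a4, a neutral amino acid exchanger (ASCT1), had 3.25, 3.66 and 2.998 FPKM with RANKL and 2.87, 2.06 and 1.46 FPKM with etelcalcetide. Its treated libraries were spread and the lowest RANKL value lay just above the highest treated one (log2 fold change -0.73, adjusted p = 0.0176 by limma), and without RANKL replicate 2 the adjusted p was 0.0629. The most abundant carrier of the class, the betaine and GABA transporter Slc6a12, had 160.8, 161.9 and 168.0 FPKM with RANKL and 156.5, 129.7 and 142.2 FPKM with etelcalcetide, a small fall (log2 fold change -0.28, adjusted p = 0.00648 by limma).

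The rises in this class included 2 carriers of more than 2-fold. Slc15a3, the lysosomal peptide and histidine transporter PHT2 (chr19:10839727-10859362, plus strand), had 1.62, 2.37 and 2.34 FPKM with RANKL and 10.1, 10.9 and 11.1 FPKM with etelcalcetide. Every treated library was several times above every RANKL library (log2 fold change 2.23, SE 0.140, adjusted p = 4.38e-06 by limma), with 28.1% of its exon length shared with another gene. Slc7a7, the y+LAT1 subunit that exchanges cationic for neutral amino acids (chr14:54369442-54417780, minus strand), had 0.949, 1.25 and 1.54 FPKM with RANKL and 3.598, 3.16 and 4.15 FPKM with etelcalcetide. Its groups did not overlap (log2 fold change 1.41, SE 0.173, adjusted p = 2.01e-04 by limma). Slc7a8, the neutral amino acid exchanger LAT2, rose from 7.23, 8.13 and 8.10 FPKM to 13.3, 14.5 and 13.3 FPKM (log2 fold change 0.72), and Slc36a1, the proton-coupled lysosomal carrier PAT1, rose from 3.37, 3.48 and 3.38 FPKM to 4.75, 5.48 and 5.60 FPKM (0.53).

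Among 13 carriers of sugars and polyols, 5 rose, 4 fell and 4 did not pass (median log2 fold change 0.22). Slc50a1, a sugar uniporter of the SWEET family, rose from 14.2, 14.8 and 14.9 FPKM to 27.6, 29.7 and 28.8 FPKM, with little spread in either group (log2 fold change 0.89, SE 0.0575, adjusted p = 5.18e-06 by limma). Slc2a1, the glucose transporter GLUT1 and the most abundant of the class, had 38.1, 45.8 and 43.6 FPKM with RANKL and 65.7, 59.1 and 54.7 FPKM with etelcalcetide. All treated libraries were higher (log2 fold change 0.41, adjusted p = 0.00398 by limma).

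Several sugar carriers fell by at least 2-fold. Slc37a2, a sugar-phosphate exchanger (chr9:37227585-37255738, minus strand), had 30.5, 40.5 and 39.8 FPKM with RANKL and 15.8, 16.01 and 17.5 FPKM with etelcalcetide. RANKL replicate 1 was the lowest of its group and still above all treated libraries (log2 fold change -1.23, SE 0.105, adjusted p = 2.43e-05 by limma). Slc5a3, the sodium-coupled myo-inositol transporter SMIT1 (chr16:92058322-92087473, plus strand), had 64.1, 44.7 and 46.9 FPKM with RANKL and 25.2, 26.5 and 28.9 FPKM with etelcalcetide. RANKL replicate 1 was high within its group, and the groups did not overlap (log2 fold change -1.01, SE 0.123, adjusted p = 1.91e-04 by limma).

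The vitamin, choline, haem and cofactor carriers numbered 12, of which 6 rose, 2 fell and 4 did not pass (median log2 fold change 0.20). Slc23a2, the sodium-coupled ascorbate transporter SVCT2 (chr2:132052496-132145108, minus strand), had 21.4, 21.3 and 22.4 FPKM with RANKL and 8.02, 7.03 and 7.81 FPKM with etelcalcetide. Both groups were tight and far apart, and it fell 2.99-fold (log2 fold change -1.58, SE 0.0648, adjusted p = 3.70e-07 by limma). Slc48a1, which exports haem from endolysosomes, rose from 8.12, 9.36 and 9.71 FPKM to 15.8, 16.6 and 15.1 FPKM (log2 fold change 0.72), and Slc22a5, the sodium-coupled carnitine transporter, rose from 2.18, 2.13 and 2.26 FPKM to 3.50, 3.08 and 3.86 FPKM (0.56). Slc46a1, the proton-coupled folate transporter and the member with the lowest mean, had 0.723, 0.900 and 0.715 FPKM with RANKL and 1.16, 1.42 and 1.54 FPKM with etelcalcetide (0.67, adjusted p = 0.00924 by limma). The choline carrier Slc44a1, the most abundant of the class, rose from 37.9, 32.8 and 29.9 FPKM to 48.4, 45.5 and 51.3 FPKM (0.45). The thiamine carrier Slc19a2 fell by 0.29 on the log2 scale, but its deposited values overlapped between groups and the call was lost without RANKL replicate 1 or 2 or etelcalcetide replicate 1 or 3 (adjusted p = 0.0609 to 0.0927).

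The mitochondrial SLC25 family was the largest class, with 35 members, 8 rising, 9 falling and 18 not passing, and a median of -0.03. No member of the family changed as much as 2-fold. Slc25a20, the carnitine and acylcarnitine carrier that brings fatty acids into the matrix, rose from 3.22, 3.02 and 3.24 FPKM to 5.50, 5.35 and 5.05 FPKM (log2 fold change 0.65, adjusted p = 2.83e-04 by limma). The iron carrier mitoferrin 2 (Slc25a28, 0.54), the dicarboxylate carrier Slc25a10 (0.54) and Slc25a30 (0.42) also rose. Slc25a23, a calcium-regulated ATP-magnesium and phosphate carrier, fell from 12.3, 13.5 and 13.2 FPKM to 8.39, 10.0 and 8.99 FPKM (-0.59, adjusted p = 4.97e-04 by limma). Falls of -0.48, -0.46 and -0.43 were found for Slc25a32, which carries folate and FAD, for the ornithine carrier Slc25a15 and for Slc25a46, an outer-membrane protein of mitochondrial dynamics.

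The most abundant member of all was Slc25a5, an ADP/ATP exchanger of the inner mitochondrial membrane. It had 548, 536 and 581 FPKM with RANKL and 534, 531 and 521 FPKM with etelcalcetide. The treated libraries all lay below the RANKL libraries by a margin smaller than the spread within RANKL (log2 fold change -0.15, adjusted p = 0.0432 by limma), and the call was lost without any library but RANKL replicate 1 (adjusted p = 0.0641 to 0.124). Near-identical relatives of this gene exist, so its reads may be divided among copies and its value is uncertain.

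Among 20 zinc, copper and magnesium carriers 7 rose, 4 fell and 9 did not pass (median log2 fold change 0.04). Slc41a3, a magnesium carrier (chr6:90604725-90646412, plus strand), rose from 1.10, 1.64 and 1.28 FPKM to 3.70, 3.82 and 4.08 FPKM (log2 fold change 1.40, SE 0.147, adjusted p = 8.35e-05 by limma). Its relative Slc41a1, a plasma-membrane magnesium exchanger, rose from 3.67, 3.80 and 3.63 FPKM to 6.44, 6.22 and 5.98 FPKM (0.66). The zinc importer Slc39a1 (ZIP1), the most abundant of the class, had 67.2, 78.1 and 82.2 FPKM with RANKL and 111.4, 107.8 and 107.6 FPKM with etelcalcetide. All 3 treated libraries exceeded all RANKL libraries (0.45, adjusted p = 9.81e-04 by limma). Another zinc importer, Slc39a10 (ZIP10), fell from 13.7, 12.3 and 9.21 FPKM to 7.38, 6.40 and 6.00 FPKM (-0.89, adjusted p = 9.24e-04 by limma). The copper importer Slc31a1 (CTR1) fell from 23.4, 23.9 and 22.3 FPKM to 17.6, 17.1 and 17.6 FPKM (-0.49).

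Among 13 carriers of sodium, potassium, calcium, protons, chloride or bicarbonate 7 rose, 3 fell and 3 did not pass, with a median log2 fold change of 0.37. The sodium/proton exchanger Slc9a5 rose from 1.83, 1.71 and 1.67 FPKM to 3.39, 3.57 and 3.57 FPKM (0.90, adjusted p = 1.12e-04 by limma). Slc12a5 (KCC2), a potassium-chloride cotransporter best known in neurons, rose from 1.06, 1.01 and 0.943 FPKM to 1.93, 1.98 and 1.78 FPKM (0.78), and its relative Slc12a9 rose by 0.71. Slc12a2 (NKCC1), which brings sodium, potassium and chloride into cells, fell from 4.58, 3.71 and 3.22 FPKM to 2.80, 2.63 and 2.58 FPKM (-0.57). The sodium-bicarbonate carrier Slc4a7 fell by 0.32 on the log2 scale, and its call was lost without RANKL replicate 1 or etelcalcetide replicate 1 or 3 (adjusted p = 0.0557 to 0.0796).

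Among 10 carriers of monocarboxylates and other organic anions 3 rose, 4 fell and 3 did not pass (median -0.07). Slc16a12 (chr19:34668403-34747289, minus strand), a creatine carrier of the monocarboxylate family, had 31.3, 25.3 and 23.7 FPKM with RANKL and 10.8, 9.75 and 10.9 FPKM with etelcalcetide. The groups were well apart and the level was 2.67-fold lower (log2 fold change -1.42, SE 0.0998, adjusted p = 8.36e-06 by limma). Slc16a1 (MCT1), the most abundant of the class, which carries lactate and pyruvate, fell from 69.4, 67.3 and 65.0 FPKM to 49.8, 42.97 and 43.7 FPKM (-0.64, adjusted p = 6.11e-05 by limma). Slc16a7 (MCT2), with higher affinity for the same cargo, fell from 1.75, 1.69 and 1.28 FPKM to 0.904, 0.879 and 0.982 FPKM (-0.78). Slc16a3 (MCT4), associated with lactate export, had 33.6, 40.9 and 42 FPKM with RANKL and 53.4, 50.7 and 44.2 FPKM with etelcalcetide (0.27, adjusted p = 0.0474 by limma), and the call was lost without RANKL replicate 1 or 2 or etelcalcetide replicate 1 or 2 (adjusted p = 0.0542 to 0.138). Slc22a17, a receptor for the iron-carrying protein lipocalin 2, rose from 1.02, 1.51 and 1.219 FPKM to 1.97, 2.08 and 2.04 FPKM (0.60). Slc10a3, a carrier relative with no assigned substrate, rose by 0.28 on the log2 scale.

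The SLC35 family holds the Golgi and endoplasmic reticulum carriers of nucleotide sugars, together with relatives of unassigned substrate, and 9 of its 20 members rose, 4 fell and 7 did not pass (median 0.17). Slc35b2, which brings the sulfate donor PAPS into the Golgi, rose from 17.5, 16.9 and 19.6 FPKM to 31, 30 and 31.5 FPKM (log2 fold change 0.70, SE 0.0635, adjusted p = 3.65e-05 by limma). Slc35a2, the UDP-galactose carrier, rose from 2.13, 2.69 and 2.43 FPKM to 4.02, 3.86 and 3.76 FPKM (0.59), Slc35f6 rose by 0.59, and Slc35e2 rose by 0.35, a call lost without RANKL replicate 2 or etelcalcetide replicate 1 or 2 (adjusted p = 0.0510 to 0.0621). Slc35a3, a UDP-N-acetylglucosamine carrier, fell from 12.8, 11.4 and 10.6 FPKM to 9.51, 8.82 and 8.73 FPKM (-0.44, adjusted p = 0.00233 by limma). Slc35g1 (-0.56) and Slc35e4 (-0.38) fell as well, and the CMP-sialic acid carrier Slc35a1 (-0.27) passed with overlapping deposited values and lost its call without RANKL replicate 1 or 3 or etelcalcetide replicate 1 or 3 (adjusted p = 0.0628 to 0.0982). The most abundant of the family, Slc35a4, did not pass (0.15, adjusted p = 0.110 by limma).

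Fatty acid uptake was represented by 2 members that moved in opposite directions. Slc27a1 (FATP1; chr8:71568882-71587302, plus strand) fell from 27.3, 26.02 and 30.5 FPKM to 11.1, 10.6 and 10.7 FPKM (log2 fold change -1.44, SE 0.0672, adjusted p = 7.72e-07 by limma). Slc27a4 (FATP4) rose from 4.35, 4.48 and 4.43 FPKM to 7.02, 7.37 and 7.22 FPKM (0.61, adjusted p = 1.66e-04 by limma). Both genes had non-overlapping groups, and Slc27a1 remained the more abundant per length in every library. Among 4 phosphate and sulfate carriers 1 rose and 1 fell (median 0.03): the sodium-phosphate cotransporter Slc20a1 (PiT1) rose from 10.1, 10.1 and 9.71 FPKM to 15.05, 15.3 and 16.4 FPKM (0.56), and the sulfate carrier Slc26a2 fell from 7.87, 6.92 and 6.38 FPKM to 5.83, 5.25 and 5.78 FPKM (-0.40). Of the 4 nucleoside and nucleotide carriers 0 passed the limma test, 1 had an unadjusted p under 0.05 and 1 passed with limma voom. This was the most abundant, the equilibrative nucleoside transporter Slc29a1, which had 15.5, 16.6 and 18.97 FPKM with RANKL and 15.98, 16.1 and 14.6 FPKM with etelcalcetide (adjusted p = 0.0658).

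Among the members, 4 that bear the symbol of a carrier without being one were set apart from the classes above. Slc22a17 and Slc25a46, described above as a receptor and a protein of mitochondrial dynamics, were counted with the carriers of their family numbers. Slc9a3r1, the scaffold protein NHERF1 that binds sodium/proton exchangers and other membrane proteins (chr11:115163341-115181181, plus strand), rose from 14.2, 14.5 and 15.3 FPKM to 31.7, 33.2 and 33.8 FPKM (log2 fold change 1.08, SE 0.0556, adjusted p = 1.35e-06 by limma). The other members set apart in this way did not pass.

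Opposite changes were found within 14 numbered families, counted as families with at least 1 member called in each direction. Families held 1 to 35 members, and those with 1 member could not be counted. Calls in both directions were also common among all tested genes, so a large family can hold both through its size. Whether the count exceeds that of other gene groups of the same sizes was not tested. In SLC7, SLC15, SLC16, SLC41 and SLC43, 1 direction rested only on calls that were lost in at least 1 fit without 1 library. The count of 14 is smaller when such calls are set aside. In SLC16 these were the calls of Slc16a3 and Slc16a10, the latter lost in 4 such fits (adjusted p = 0.0511 to 0.0815 by limma). The widest gaps in log2 fold change were those of Slc2a6 over the urate carrier Slc2a9 (3.13), of the lysosomal peptide carriers Slc15a3 over Slc15a4 (2.58), and of Slc37a1 over Slc37a2 (2.06) and Slc27a4 over Slc27a1 (2.06). Slc2a9 had 3.89, 3.95 and 3.87 FPKM with RANKL and 2.61, 2.68 and 3.51 FPKM with etelcalcetide, with etelcalcetide replicate 3 nearest to the RANKL libraries (-0.49, adjusted p = 0.00757 by limma). Slc15a4 overlapped between groups, at 7.97, 6.57 and 8.82 FPKM and 6.68, 6.53 and 5.95 FPKM (-0.35, adjusted p = 0.0236 by limma), and its call was lost without RANKL replicate 1 or 3 or etelcalcetide replicate 3 (adjusted p = 0.0625 to 0.0861). Slc37a1 rose from 1.64, 1.77 and 1.66 FPKM to 3.25, 3.01 and 3.44 FPKM (0.82), as did Slc37a3 from 4.62, 4.87 and 4.75 FPKM to 8.16, 8.25 and 8.07 FPKM (0.69). The zinc carriers Slc30a5 and Slc30a6, whose proteins form a heterodimer in the early secretory pathway, were called in opposite directions, Slc30a5 from 20.9, 20.1 and 19.1 to 16.1, 15.3 and 16.99 FPKM (-0.39) and Slc30a6 from 4.69, 5.16 and 4.95 to 6.54, 7.79 and 7.44 FPKM (0.47). The pairs with the weakest falling or rising member were Slc7a7 and Slc7a1 (-0.20, overlapping values), Slc16a3 (0.27) and Slc16a12, Slc43a2 (0.27) and Slc43a3, and Slc41a3 and Slc41a2 (-0.31). The call of Slc7a1 was lost without RANKL replicate 1 or 2 or etelcalcetide replicate 2 or 3 (adjusted p = 0.0603 to 0.116), that of Slc43a2 without RANKL replicate 1 or etelcalcetide replicate 2 or 3 (0.0698 to 0.0961), and that of Slc41a2 without any library but RANKL replicate 3 (0.0545 to 0.103).

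**Figure D3:**
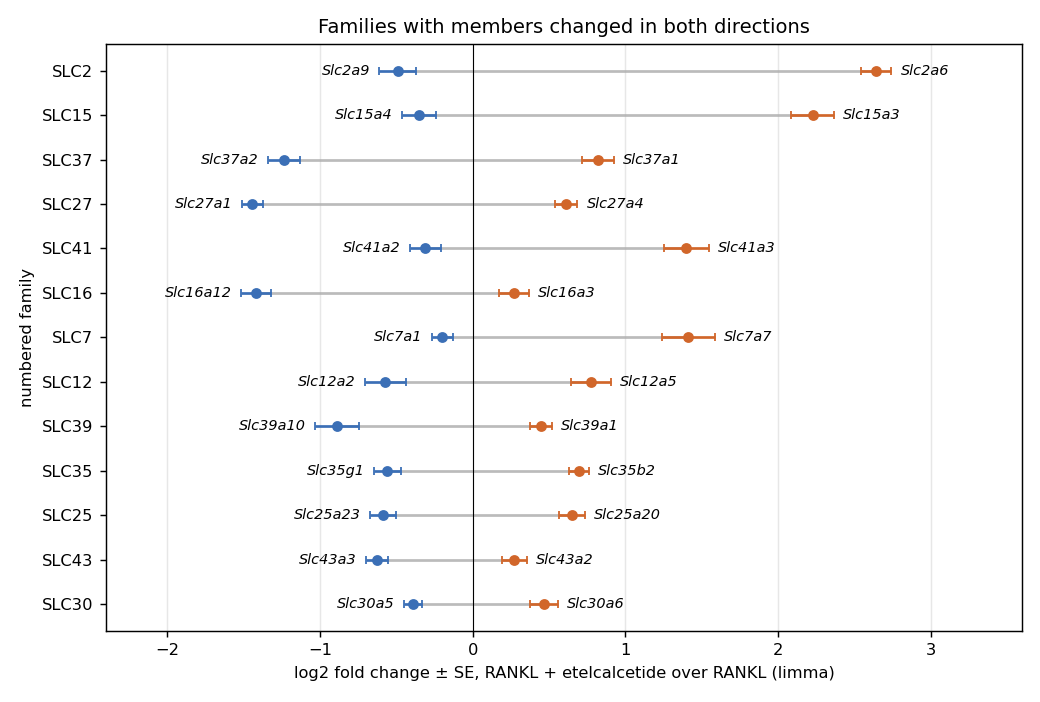
Members called in opposite directions within the same numbered family, for all such families but SLC9, as the log2 fold change and SE of the highest and the lowest called member. The pairs straddle 0 because they were chosen as members called in opposite directions. Their gaps run from 3.13 in SLC2 to 0.86 in SLC30. In SLC9 the highest called member is Slc9a3r1, which is no carrier.

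The deposited values of 5 called members overlapped between groups (Slc15a4, Slc7a1, Slc16a6, Slc35a1 and Slc19a2), all 5 were called lower, and with library totals alone none of the 5 passed. Slc16a6, a monocarboxylate carrier relative, had 12.4, 13.1 and 13.7 FPKM with RANKL and 11.1, 11.2 and 12.5 FPKM with etelcalcetide (-0.25, adjusted p = 0.0150 by limma), and its call was lost without RANKL replicate 2 or etelcalcetide replicate 1 or 2 (adjusted p = 0.0503 to 0.0550). The calls of Slc25a5, Slc4a7 and Slc41a2 were also lost with library totals alone. The fit divides the deposited values by scaling factors of 0.967 to 0.978 with RANKL and 1.01 to 1.04 with etelcalcetide, which lowers the treated libraries relative to the RANKL libraries. For 10 members the deposited means went against the sign of the fit, and 0 of these were called.

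Levels ranged widely over the members. In all, 4 had a mean of at least 100 FPKM, Slc25a5 (542 FPKM), Slc6a12 (153 FPKM), the taurine carrier Slc6a6 (123 FPKM) and the mitochondrial phosphate carrier Slc25a3 (101 FPKM), of which Slc6a6 and Slc25a3 were named after their values were seen. Another 65 lay between 10 and 100 FPKM and 95 under 10 FPKM, with a median of 6.94 FPKM. Summed over all members, the level was 2970 to 3104 FPKM with RANKL and 3064 to 3183 FPKM with etelcalcetide, so the ranges overlapped. The 10 most abundant members held 45.7% to 46.8% of the summed level with RANKL and 44.1% to 44.4% with etelcalcetide. By class, the summed FPKM of fatty acid carriers was 30.5 to 34.9 with RANKL and 17.9 to 18.1 with etelcalcetide, and that of monocarboxylate and organic anion carriers was 181 to 186 and 153 to 167. The sums of nucleotide sugar carriers (217 to 231 against 252 to 259 FPKM), of zinc, copper and magnesium carriers (226 to 232 against 258 to 266 FPKM) and of sugar carriers (189 to 191 against 212 to 216 FPKM) were higher in every treated library. So were those of vitamin and cofactor carriers (115 to 119 against 130 to 134 FPKM) and of the sodium, potassium and proton class (77.9 to 80.6 against 90.5 to 94.4 FPKM). The sums of phosphate and sulfate carriers and of the members set apart as no carriers were higher as well. Sums of amino acid, mitochondrial and nucleoside carriers overlapped between the groups. All sums use deposited FPKM before scaling. The factors of the fit (0.967 to 0.978 with RANKL, 1.01 to 1.04 with etelcalcetide) would lower treated sums relative to RANKL sums. Whether the sums overlap depends on this scaling for the amino acid and mitochondrial carriers. Single members weigh heavily, since the rise of Slc39a1 was about that of the zinc sum and the rise of Slc2a6 exceeded that of the sugar sum.

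**Figure D4:**
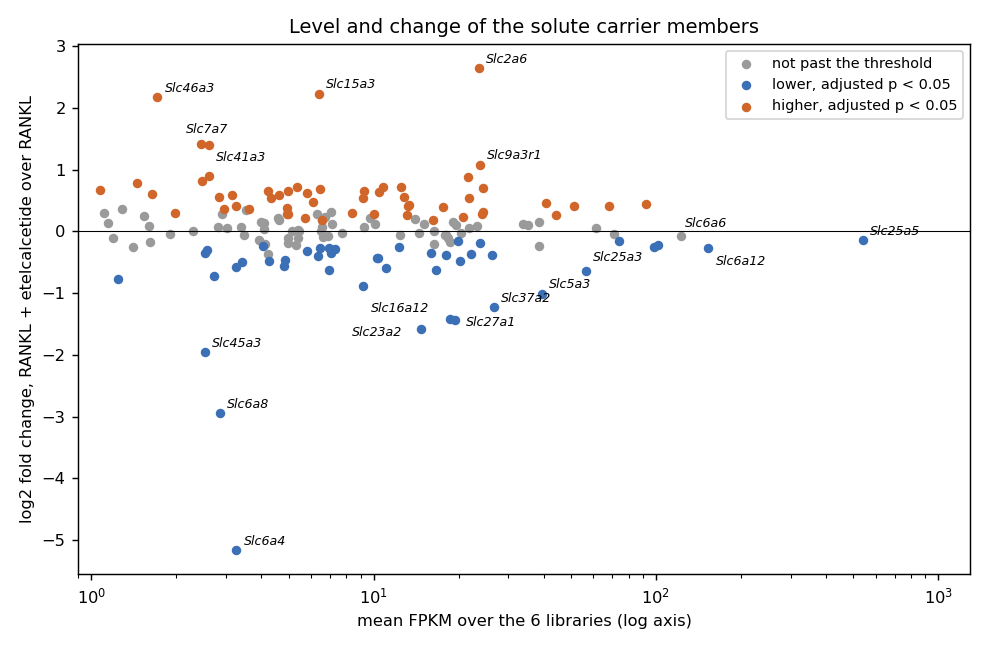
Mean FPKM of each member over 6 libraries (log axis) against its log2 fold change, coloured by call. Members with at least 2-fold changes lie across the range from low levels (Slc46a3) to the most abundant of them (Slc5a3), whereas Slc25a5 at 542 FPKM changed by -0.15.

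The rule has a threshold of 1 FPKM over all libraries. Just inside it were Slc46a1 (mean 1.08 FPKM) and the lysosomal arginine sensor Slc38a9 (1.11 FPKM), and just outside were Slc26a10 (0.965 FPKM) and the endosomal sodium/proton exchanger Slc9a9 (0.905 FPKM). Slc38a9 had 0.918, 0.943 and 0.993 FPKM with RANKL and 1.28, 1.26 and 1.25 FPKM with etelcalcetide, and did not pass (log2 fold change 0.30, adjusted p = 0.0829 by limma). Of the Slc symbols outside the members, 96 had 0 reads in every library.

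Among carriers of the SLC series that go under other symbols, 27 of 42 symbols were tested, 8 were higher, 8 lower and 11 did not pass (median 0.01). These shares were close to the shares of all tested genes given above. Neither this list nor the shorter lists of helper proteins and sodium pump subunits below were tested against all tested genes. Xpr1, the phosphate exporter, fell from 9.79, 10.8 and 9.65 FPKM to 6.84, 6.70 and 6.89 FPKM (log2 fold change -0.64, adjusted p = 1.28e-04 by limma), whereas the phosphate importer Slc20a1 rose. Xpr1 was chosen after its values were seen. Among 15 partner and helper proteins of carriers 12 were tested, 7 were higher and 2 lower (median 0.21). Bsg (basigin), the chaperone of the lactate carriers MCT1 and MCT4, had 164, 192 and 199 FPKM with RANKL and 275, 277 and 279 FPKM with etelcalcetide (0.51, adjusted p = 4.98e-04 by limma), also chosen after its values were seen. Of 6 sodium pump subunits, which maintain the gradient that sodium-coupled carriers use, 3 were tested, and 2 were higher, among them the beta subunit Atp1b3 (0.71), with 0 lower.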

How the data were processed

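Bulk RNA of 6 RAW264.7 libraries, 3 given RANKL and 3 given RANKL plus etelcalcetide, was analysed from 1 FPKM table per library that the authors deposited; groups come from the sample titles. The submitters' processing notes list HISAT2 2.1.0, featureCounts 1.6.0, DESeq2 1.22.1, Trimmomatic 0.38 and quality-control tools, without saying what each did. The notes name GRCh38, yet all 55536 gene IDs are those of mouse GENCODE M21, whose coordinates (GRCm38, 1-based) are used. FPKM times merged exon length gave whole reads within 0.01 read for all values. For a gene of 1 kb, 1 read corresponds to 0.0615 to 0.0728 FPKM.

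The FPKM that the authors deposited were scaled with TMM factors (trimmed mean of M-values), and log2(FPKM + 0.1) was modelled with limma 3.58.1 in R 4.3.3, with group as the only term. Genes with 0.5 FPKM and 10 reads in at least 3 libraries were tested (11120), and p-values were adjusted by Benjamini-Hochberg over all of them. The steps were tested on simulated data in which few genes changed, in equal numbers up and down. Many more genes were called in the real data, so that test cannot speak to the dependence on scaling. Printed FPKM are the deposited values. Alternatives covered scaling, pseudocount, filter, limma voom on recovered reads, each library left out and a replicate block. Libraries of the same group differed by a mean chi-square of 5.38 to 29.0 per gene and a median of 1.08 to 2.67, so the means are raised by genes far above the median. None was treated as a duplicate.

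The members and all lists were chosen with earlier results of these data known. Genes named are, per class, up to 4 rising and 4 falling called members with the largest change and the most abundant member, the widest pair of each family called in both directions, the members at the threshold, those present in 1 group only, and list genes called with at least a 2-fold change. Promoter sequences are RefSeq's on GRCm38.p6. Some genes that this rule names are not reported here. Protein sequences were not used here.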

Additional observations from a re-analysis of the deposited data

How the results depend on the processing

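With library totals alone in place of trimmed-mean factors 29 members were lower (44 otherwise), 15 of the 98 calls were lost and 15 gained, and the median over all genes moved to 0.07. Class medians were then -0.0049 for amino acids and peptides, -0.34 for fatty acids, 0.053 for mitochondrial carriers, 0.013 for monocarboxylates and other organic anions, 0.24 for nucleotide sugars, 0.45 for sodium, potassium, calcium, proton, chloride and bicarbonate, 0.27 for vitamins, choline, haem and cofactors, and 0.12 for zinc, copper and magnesium. With a pseudocount of 1 FPKM the median of the sodium, potassium and proton class was 0.31. With no filter on low values, 5 other-symbol carriers were lower, and 7 rises and 10 falls of members were lost. The cause of these shifts was not tested. Under limma voom 97 of 98 calls were kept and 7 gained.

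Leaving out 1 library at a time gave 44 to 63 members higher and 34 to 40 lower. Of the 98 calls, 72 were kept in all 6 fits and 26 were lost in at least 1. Class medians ranged from -0.061 to 0.036 for mitochondrial carriers, from -0.11 to 0.082 for nucleosides and from -0.088 to 0.14 for phosphate and sulfate. No value changed sign with a call under any of these alternatives. At a member threshold of 2 FPKM 49 rose and 43 fell.

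Replicate numbers did not pair the libraries (correlations of deviations 0.07, -0.02 and -0.03 for the same numbers), and not every library correlated best with its own number. With the replicate block 51 members were higher and 42 lower. Small folds are the least certain, since 59 called members moved by less than 1.5-fold, and for 28 members over 5% of the exon length is shared with another gene, whose reads cannot be told apart.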

Other observations

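Below the mean of 1 FPKM that defines the members, 11 further Slc genes were tested, of which 2 rose and 2 fell by limma with Benjamini-Hochberg adjustment over all tested genes. Slc7a14, a lysosomal relative of the cationic amino acid carriers, had 0.980, 0.852 and 0.756 FPKM with RANKL and 0.0462, 0.0296 and 0.0250 FPKM with etelcalcetide. Every treated library was near 0 (log2 fold change -2.89, SE 0.242, adjusted p = 2.21e-05). Slc24a5, a potassium-dependent sodium/calcium exchanger known from pigment cells, fell from 0.984, 0.730 and 0.679 FPKM to 0.306, 0.406 and 0.396 FPKM (-0.99, adjusted p = 0.00400), with 85 and 39 reads over the groups and 39.5% of its exon length shared with the antisense gene Myef2. Slc22a15, a zwitterion carrier, rose from 0.341, 0.398 and 0.474 FPKM to 1.05, 1.08 and 0.825 FPKM (1.04, adjusted p = 0.00213). The sodium/calcium exchanger Slc8a1 rose from 0.474, 0.613 and 0.509 FPKM to 0.896, 1.15 and 1.203 FPKM (0.83, adjusted p = 0.00495). In each of these genes the groups did not overlap. All 4 were named after their values were seen. Slc7a14 and Slc24a5 passed the filter for testing through their RANKL libraries alone, and Slc22a15 through its etelcalcetide libraries alone. The choice of these genes therefore leaned on the group where each is high, which favours groups that do not overlap.

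Among the sodium pump subunits, Atp1b3, a beta subunit, had 242.8, 232.2 and 219.8 FPKM with RANKL and 419.9, 381.9 and 397.5 FPKM with etelcalcetide (log2 fold change 0.71, adjusted p = 2.06e-05 by limma). Its groups lay far apart.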
